A study of Anethum foeniculum with 6 samples.

Results

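The genes described here are those whose RNA level differed most between fennel libraries grown at the same CO2 concentration, in both concentrations tested. They were chosen by a rule on measured levels, in TPM, a relative transcript abundance in which reads are divided by contig length and scaled to the same sum in every library. The TPM of all contigs of a Trinity gene, a group of contigs that the assembler Trinity joined, were summed in each library. A gene was a member if its highest summed TPM was at least 5 and (highest + 0.1) divided by (lowest + 0.1) was at least 4 among the 3 libraries at 400 ppm, and again among the 3 libraries at 800 ppm. The rule selected 164 of 27955 genes, or 0.587%. Of the 15009 genes that reached 5 TPM in a library of each group, called genes at this level below, the members were 1.09%.

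The libraries came from leaves of wild-type fennel, labelled Anethum foeniculum, sampled at 5 weeks, with 3 libraries labelled as biological replicates at 400 ppm CO2 and 3 at 800 ppm. The plants stood in hydroponics, and a greenhouse was kept at each concentration, so CO2 and greenhouse cannot be told apart. The sources used here do not say whether a library was made from 1 plant or from several, so p-values measure the spread between these libraries only. The deposited tables pair the identifiers with no gene names, so functions of the members and markers of leaf tissue were not analysed here. In whole leaves, a lower level can mean fewer cells of the type that makes an RNA or less RNA per cell, which cannot be told apart.

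Plants raised side by side do not have equal transcriptomes. In Arabidopsis thaliana, genes that respond to the environment, to light or to pathogens are prominent among those that vary most between plants grown alike, while genes for basic cell functions vary little. A plant's genotype, its leaf age and the hour of harvest also set RNA levels, and fennel, a largely outcrossing species, can carry many alleles within 1 seed lot. A de novo assembly can list such alleles, or copies of a gene family, as separate genes. None of these was recorded per library, and their part in the values below was not tested.

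The libraries held 13118855 to 19841916 estimated reads. Over the genes at this level, Pearson's r of log2(TPM + 0.1) was 0.926 to 0.933 for the 3 pairs of 400 ppm libraries and 0.908 to 0.940 for the 3 pairs of 800 ppm libraries. These are correlations across genes, which are not independent. The median absolute difference between paired libraries was 0.211 to 0.260 on the log2 scale for these genes and 2.06 to 2.54 for the members, where the rule itself asks for a large difference. A check for a library deposited more than once compared the pairs within each CO2 group and none across the groups. It found no pair that matched within counting noise, which says nothing of how the libraries were sampled.

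Of the 15009 genes at this level, 391 met the limit on the ratio at 400 ppm and 471 at 800 ppm, so 227 genes met it at 400 ppm only and 307 at 800 ppm only. The members were 41.9% of the genes variable at 400 ppm and 34.8% of those variable at 800 ppm. Over all genes at this level, 2.61% were variable at 400 ppm and 3.14% at 800 ppm. The ratios in the 2 groups had a Spearman rho of 0.436 across these genes, each ratio resting on 3 libraries. Neither the rho nor the shared percentages were adjusted for level or read number. Counting error widens the ratios of a gene with few reads in both groups. The members' median ratio of highest to lowest level was 9.72 at 400 ppm and 9.84 at 800 ppm, against 1.28 and 1.32 for all genes at this level. A ratio of at least 8 was reached by 96 members at 400 ppm and by 94 at 800 ppm. These ratios chose the members and are given as a description.

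**Figure D1:**
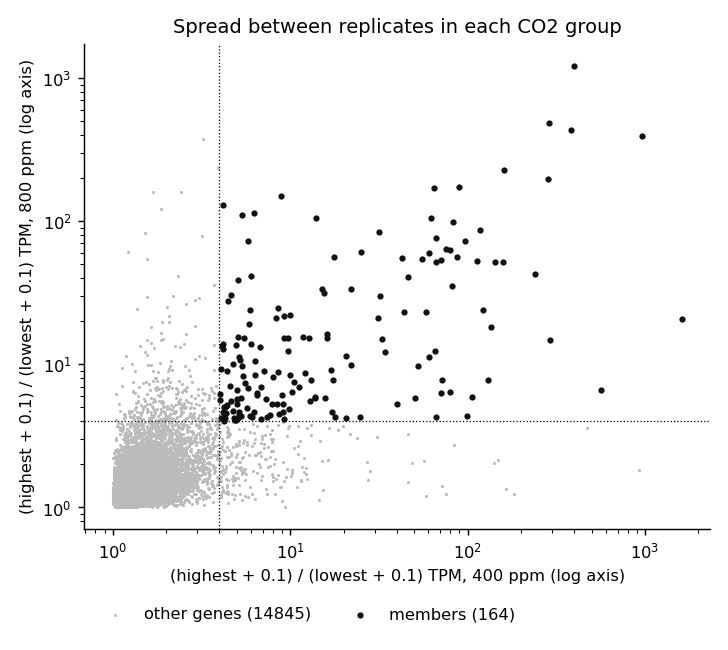
Ratio of highest to lowest TPM among the 3 libraries at 400 ppm (horizontal) and at 800 ppm (vertical), both on log axes with 0.1 TPM added, for 15009 genes with at least 5 TPM in a library of each group. Black points are the 164 members, grey points the other genes, and dotted lines mark the ratio of 4 that the rule set. Most grey points lie near a ratio of 1 on both axes.

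The member nearest to the limit on the level was TRINITY_DN7030_c0_g1, with a highest level of 5.07 TPM in its lower group. The gene just outside was TRINITY_DN14945_c0_g1, with 4.99 TPM. On the ratio, the member nearest to the limit was TRINITY_DN13598_c1_g1, at 4.03 in its less variable group, and the nearest gene outside was TRINITY_DN8702_c0_g1, at 3.98.

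Most members were expressed at a modest level. Their mean TPM over the 6 libraries had a median of 7.19, against 21.9 for all genes at this level, and ran from 1.99 to 488 TPM. A mean under 10 TPM was found for 104 members, at least 20 TPM for 30 members and at least 100 TPM for 6 members. The 6 most abundant members held 50.9% of the members' summed TPM. Summed over the members, the level was 3593, 3433 and 4413 TPM in replicates 1, 2 and 3 at 400 ppm. It was 4985, 3066 and 4108 TPM in replicates 1, 2 and 3 at 800 ppm. The sums of the 2 groups overlapped, and no library held more than 0.499% of its TPM in these genes.

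The members did not share 1 high library. The library with the highest TPM among the 400 ppm libraries was replicate 1 for 77 members (47.0%), replicate 2 for 37 (22.6%) and replicate 3 for 50 (30.5%). Over all genes at this level these percentages were 43.7, 21.3 and 35.0, so the order of the libraries was that of the background. At 800 ppm, replicate 1 was highest for 59 members (35.98%), replicate 2 for 46 (28.0%) and replicate 3 for 59 (35.98%). There the background was 42.0, 35.6 and 22.4%, and replicate 3 was highest for a larger percentage of the members than of all genes. That difference was not tested, since the members share libraries.

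The scale set the background and hardly moved the members. In CPM, read counts scaled by library size, normalized by TMM, a scaling under which most genes match between libraries, replicates 1, 2 and 3 were highest for 29.2, 34.4 and 36.4% of the genes at this level at 400 ppm. At 800 ppm these percentages were 28.0, 39.2 and 32.8. The members kept 45.7, 23.8 and 30.5% at 400 ppm and 33.5, 28.7 and 37.8% at 800 ppm. On this scale, replicate 1 at 400 ppm was highest for a larger percentage of the members than of all genes at this level, which it was not by much in TPM.

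Low levels were most often in replicates 2 and 3 of each group. At 400 ppm, the lowest TPM was in replicate 2 for 72 members and in replicate 3 for 58, but in replicate 1 for 26. At 800 ppm, it was in replicate 2 for 69 members and in replicate 3 for 65, but in replicate 1 for 27. Ties for the lowest level, 8 members at 400 ppm and 3 at 800 ppm, were counted for no library. In each group, replicate 1 was therefore seldom the lowest library of a member. In TPM this held for all genes at this level too, with 24.3, 45.1 and 30.5% lowest in replicates 1, 2 and 3 at 400 ppm and 18.2, 33.0 and 48.6% at 800 ppm. At 800 ppm, the library most often lowest was thus replicate 3 over all genes at this level, but replicate 2 over the members. The median TPM of the members followed the order of the members' own counts. It was 8.64, 3.66 and 5.73 in replicates 1, 2 and 3 at 400 ppm and 6.69, 3.69 and 5.24 at 800 ppm.

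**Figure D2:**
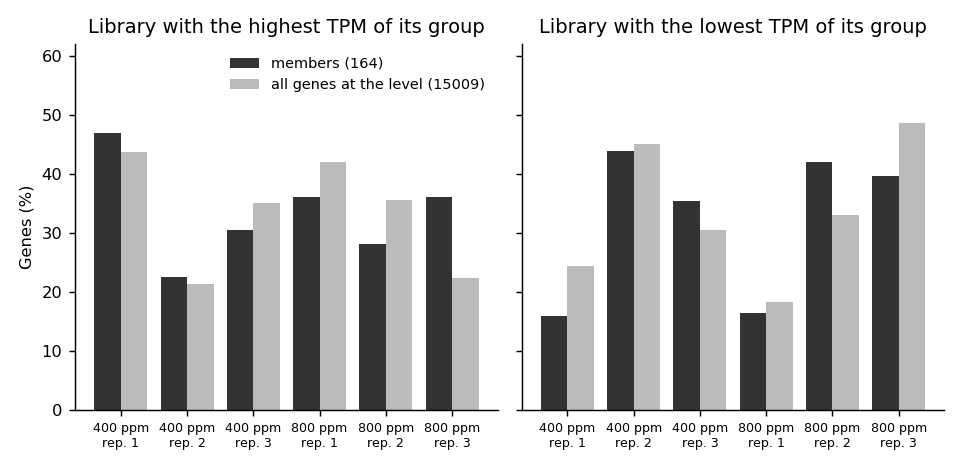
Percentage of genes for which each library (horizontal axis) held the highest (left) or the lowest (right) TPM of its CO2 group, for the 164 members (dark bars) and all 15009 genes at this level (grey bars). Replicate 1 was highest for 47.0% of the members at 400 ppm, and no library was highest for every member.

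Each of the 9 combinations of a highest library at 400 ppm with one at 800 ppm held members. The same replicate number was highest in both groups for 67 members (40.9%, against 35.3% of all genes at this level). Replicate 1 was highest in both groups for 37 members (22.6%, against 21.9% of all genes at this level), and replicate 2 at 400 ppm with replicate 1 at 800 ppm for 6 members (3.66%, against 7.22%). The percentages over all genes, here and for the patterns below, are those in TPM, and these counts were not repeated in CPM. The most abundant member of each combination is described next.

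TRINITY_DN3650_c0_g1 was highest in replicate 1 of both groups. It had 170.0, 21.0 and 47.5 TPM in replicates 1, 2 and 3 at 400 ppm and 440.4, 53.5 and 113 TPM at 800 ppm. The groups overlapped, and in each of them replicate 2 was the lowest. TRINITY_DN8695_c0_g1, a single contig of 581 bases, was highest in replicate 1 at 400 ppm and in replicate 2 at 800 ppm. Its levels were 416, 1.32 and 35.8 TPM at 400 ppm and 231, 1110 and 74.4 TPM at 800 ppm. Behind these stood 1453, 7 and 139 estimated reads at 400 ppm and 1035, 5517 and 330 at 800 ppm. Replicate 2 was thus the lowest library of 1 group and the highest of the other, and the groups overlapped. TRINITY_DN198_c1_g1 had 290, 2.12 and 7.61 TPM at 400 ppm and 16.1, 39.1 and 126 TPM at 800 ppm. Replicate 1 at 400 ppm stood above all other libraries and replicate 2 at 400 ppm below all others.

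The combinations with replicate 2 as the highest library at 400 ppm were led by 3 members. TRINITY_DN52324_c0_g1 had 0, 95.5 and 0 TPM at 400 ppm and 39.1, 0.06 and 0 TPM at 800 ppm. Only replicate 2 at 400 ppm and replicate 1 at 800 ppm held more than 1 read, 1798 and 622 estimated reads. A count of 0 allows up to 3 reads for counting error, which is 0.244 TPM of this contig in replicate 1 and 0.219 TPM in replicate 3 at 400 ppm, so replicate 2 was at least 391-fold higher than replicate 1. TRINITY_DN5526_c0_g1 had 42.5, 162 and 0 TPM at 400 ppm and 18.7, 53.4 and 2.48 TPM at 800 ppm, with replicate 2 highest and replicate 3 lowest in both groups. Its counts were low, at 63, 411 and 0 estimated reads at 400 ppm and 36, 129 and 8 at 800 ppm. TRINITY_DN8077_c0_g2 had 35.4, 130 and 24.9 TPM at 400 ppm and 4.67, 2.12 and 9.73 TPM at 800 ppm, and every library at 400 ppm stood above every library at 800 ppm.

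Replicate 3 was the highest 400 ppm library in the remaining combinations, which held the most abundant members. TRINITY_DN4349_c0_g1 had 76.3, 39.7 and 231 TPM at 400 ppm and 912, 132 and 895 TPM at 800 ppm. Replicate 2 at 800 ppm lay below replicate 3 at 400 ppm, so the groups overlapped. TRINITY_DN6103_c0_g1 had 125, 30.4 and 262 TPM at 400 ppm and 1021, 151 and 1339 TPM at 800 ppm, with replicate 2 lowest in both groups and the groups again overlapping. TRINITY_DN828_c0_g1 went the other way. It had 250.3, 1002 and 1266 TPM at 400 ppm and 27.5, 93.7 and 17.8 TPM at 800 ppm, and the groups stood apart.

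**Figure D3:**
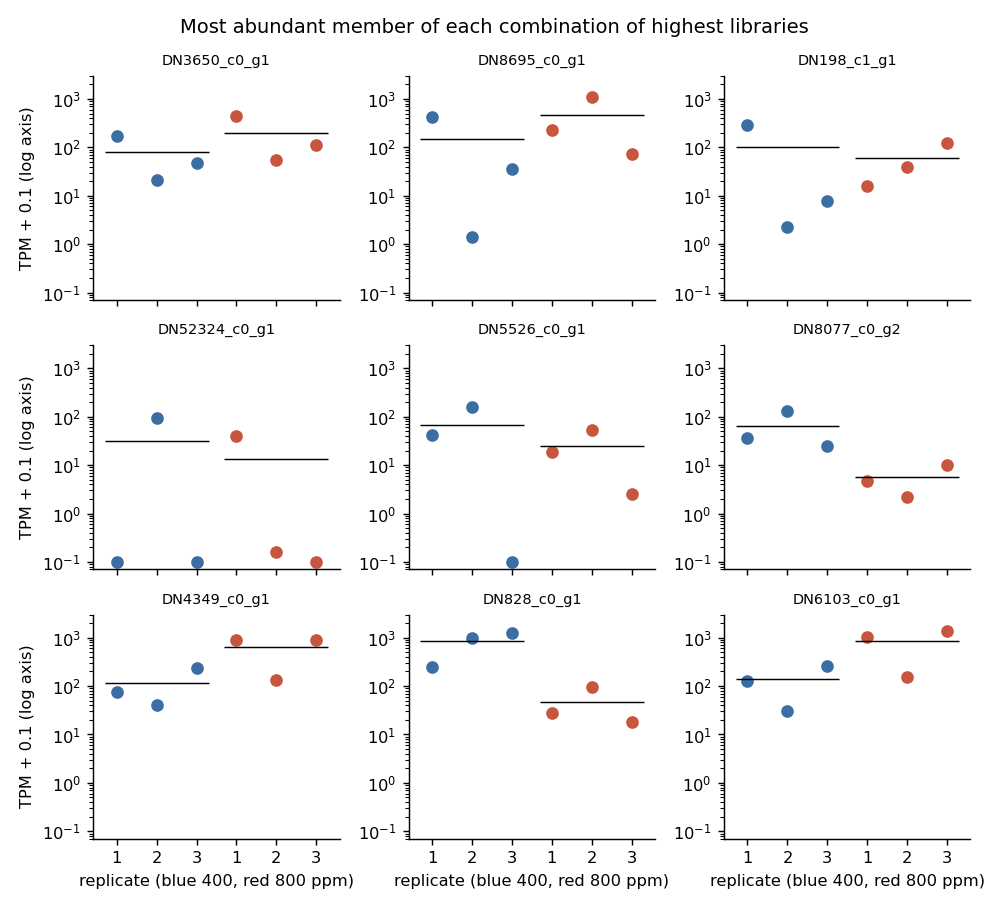
TPM plus 0.1 (log axis) in each library for the most abundant member of each combination of highest libraries. Points are libraries, blue at 400 ppm and red at 800 ppm, in the order of replicates 1, 2 and 3, and lines are the group means plus 0.1. TRINITY_DN828_c0_g1 and TRINITY_DN8077_c0_g2 are the panels in which the groups do not overlap.

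Sorting each library as above or below its group mean on the log2 scale gave each member a pattern of high and low libraries. Of 36 possible patterns, 34 were seen. A single high library was found in 71 members at 400 ppm and in 69 at 800 ppm, and 2 high libraries in the others. Both groups had 2 high libraries in 61 members and 1 high library in 37 members. No share over all genes was taken for these counts of high libraries. The 6 most frequent patterns together held 71 members. Each of the 6 held 4.88 to 10.4% of the members and 3.66 to 6.67% of all genes at this level. They were picked as the most frequent among the members, which raises the members' side.

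The most frequent pattern, with replicates 1 and 2 high at 400 ppm and replicates 1 and 3 high at 800 ppm, held 17 members (10.4%, against 3.79% of all genes at this level). Their median levels were 10.1, 9.52 and 1.82 TPM in replicates 1, 2 and 3 at 400 ppm and 7.03, 1.72 and 9.69 TPM at 800 ppm. The low libraries were thus replicate 3 in the first group and replicate 2 in the second. Of these members, 2 had a library at or under 0.1 TPM and 12 had a single contig. The most abundant by mean TPM among them had a mean of 17.0 TPM. The members given in this and the next 3 paragraphs were picked after their values were seen. TRINITY_DN2489_c0_g1 had 31.1, 26.9 and 5.23 TPM at 400 ppm and 14.7, 0.67 and 7.92 TPM at 800 ppm.

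Replicate 1 alone was high in both groups in 13 members (7.93%, against 6.67%). TRINITY_DN1285_c0_g1 was at 67.5, 1.35 and 1.18 TPM at 400 ppm and at 174, 17.8 and 22.1 TPM at 800 ppm. TRINITY_DN1285_c0_g2, which Trinity drew from the same read cluster, was at 37.5, 1.61 and 3.66 TPM at 400 ppm and at 236, 8.92 and 6.89 TPM at 800 ppm. TRINITY_DN1267_c0_g3 was at 23.4, 1.04 and 2.15 TPM at 400 ppm and at 199.6, 17.4 and 24.5 TPM at 800 ppm. In these 3 members, replicate 1 at 800 ppm was the highest of all libraries, and replicate 1 at 400 ppm was above both of its fellow replicates. A further 13 members (7.93%, against 6.35%) were low only in replicate 2 at 400 ppm and replicate 3 at 800 ppm.

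**Figure D4:**
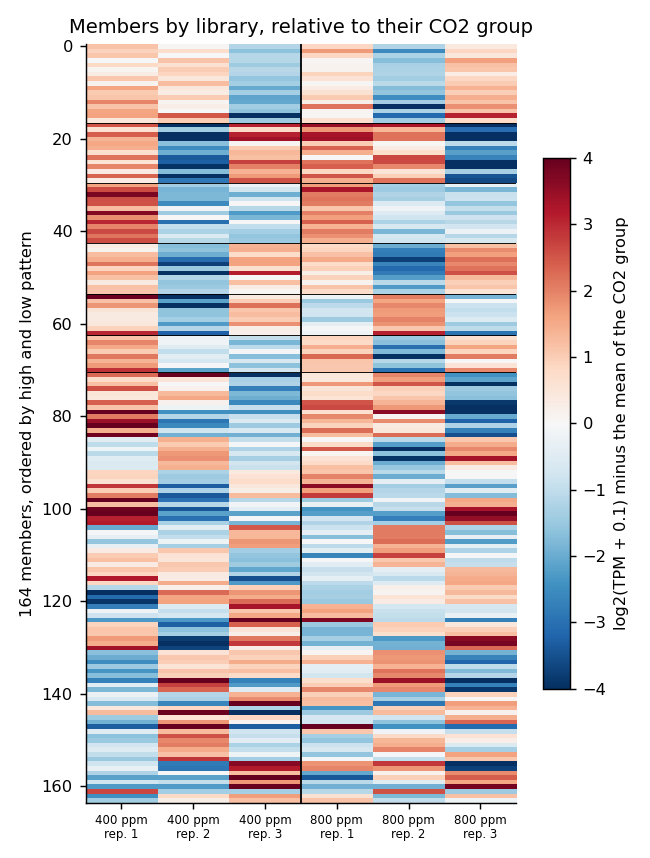
The 164 members (rows) in the 6 libraries (columns), as log2(TPM + 0.1) minus the mean of the CO2 group, with colours ending at -4 and 4. Rows are ordered by their pattern of high and low libraries, the most frequent pattern first, and lines close each of the 6 most frequent patterns, the first of which holds 17 members.

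In 45 members, a library was at or under 0.1 TPM, in effect without reads, while another library of the same group reached at least 5 TPM. Such a library was found in both groups for 22 members, at 400 ppm only for 13 and at 800 ppm only for 10. The other 119 members were above 0.1 TPM in every library. The near absent levels were unevenly spread. Replicates 1, 2 and 3 held 8, 27 and 9 of them at 400 ppm and 5, 10 and 21 at 800 ppm. Over all genes at this level, replicate 2 at 400 ppm and replicate 3 at 800 ppm had the most genes at or under 0.1 TPM. The percentages were 0.247% and 0.200%, against 0.0333 to 0.0866% in the other 4 libraries. The members just counted are included and make up much of these counts, so the percentages are no separate background. Replicate 2 at 400 ppm was the most deeply sequenced library, and replicate 3 at 800 ppm was among the 3 shallowest.

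Near absence in exactly these 2 libraries, and in no other, was found for 10 members. Their median levels were 6.46, 0 and 6.43 TPM in replicates 1, 2 and 3 at 400 ppm and 9.47, 12.3 and 0 TPM at 800 ppm. TRINITY_DN24549_c0_g1 had 37.8, 0.04 and 55.8 TPM at 400 ppm and 122, 104 and 0 TPM at 800 ppm. Its 1033 estimated reads in replicate 3 at 400 ppm and 2613 in replicate 1 at 800 ppm stood against 1 and 0 reads in the near absent libraries. With the floor of 3 reads, or 0.142 TPM, replicate 1 at 800 ppm was at least 856-fold higher than replicate 3. TRINITY_DN3491_c0_g1 had 6.97, 0 and 28.8 TPM at 400 ppm and 48.5, 21.0 and 0 TPM at 800 ppm. TRINITY_DN4790_c0_g1 had 24.0, 0 and 38.2 TPM at 400 ppm and 43.2, 19.97 and 0 TPM at 800 ppm, and TRINITY_DN4790_c1_g1 of the same read cluster had 5.94, 0 and 6.16 TPM and 10.4, 7.57 and 0 TPM. The 10 members had at most 1 read in replicate 2 at 400 ppm and 0 reads in replicate 3 at 800 ppm, while their reads in replicate 1 at 800 ppm ran from 4 to 2613.

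Among 21173 genes with at least 1 TPM in a library of each group, a lower minimum than that of the rule, near absence in exactly 1 library of each group was most often in this same pair of libraries, with 34 genes. Replicate 3 at 400 ppm with replicate 2 at 800 ppm followed with 30 genes, and replicate 2 in both groups with 28. The other 6 pairs held 12 to 19 genes each. The members with such levels are included in these counts, and 10 of the 34 genes are the members described above. Without the members this pair of libraries would not be the most frequent, so the wider set is no separate support for it.

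The members did not move together as a whole. After the mean of its CO2 group was subtracted from each log2(TPM + 0.1), Pearson's r between members over the 6 libraries had a median of 0.0617 in 13366 pairs. The middle 50% of pairs ran from -0.346 to 0.475. An r over 0.8 was found in 8.31% of pairs and an r under -0.8 in 5.72%. Over pairs of all genes at this level, the median was 0.0932, with 7.28% of pairs over 0.8 and 4.66% under -0.8. With 6 libraries and 2 means subtracted, high values arise readily, and all pairs share the same libraries. The shares of the members were near those of the background on both sides.

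Of the 9 members that led a combination of highest libraries, TRINITY_DN828_c0_g1 had the closest match among the members, TRINITY_DN1782_c0_g4, with r = 0.995 over 6 libraries after subtraction of the group means. The second had 5.05, 57.6 and 61.1 TPM at 400 ppm and 7.15, 43.5 and 2.71 TPM at 800 ppm, so its replicates stood in the same order while its groups overlapped. TRINITY_DN6103_c0_g1 was most like TRINITY_DN1034_c0_g1 (r = 0.980), which had 57.5, 16.7 and 143 TPM at 400 ppm and 99.6, 8.16 and 204 TPM at 800 ppm. TRINITY_DN4349_c0_g1 was in turn most like TRINITY_DN6103_c0_g1 (r = 0.971). In this set, replicate 2 was lowest in both groups. TRINITY_DN3650_c0_g1 was most like TRINITY_DN1267_c0_g3 (r = 0.974). Each r here is the highest that a member reached with any other member. Over the 9 members these best matches ran from 0.938 to 0.995. Values picked as the highest are readily high over 6 libraries, so nothing is read from their height.

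Trinity splits its read clusters (the DN number of an identifier) into components (the c number), and components into genes. The r between 2 members of the same component was 0.905 in TRINITY_DN1285, 0.776 in TRINITY_DN3650 and 0.523 in TRINITY_DN3097. It was 0.198 in TRINITY_DN13150 and -0.0873 in TRINITY_DN7675, the other components with 2 members. Between different components of 1 read cluster, r was 0.997 for the 2 members of TRINITY_DN4790 and -0.429 for those of TRINITY_DN565. For 101 members no other gene was listed in the component (61.6%, against 62.6% of genes at this level). For the other 63, the sum over the whole component still met the rule in 18 and no longer met it in 45. Members whose component sum no longer met it held a median of 29.6% of the component's TPM, against 67.4% where it did. TRINITY_DN828_c0_g1, TRINITY_DN8077_c0_g2 and TRINITY_DN4788_c0_g2, called between the CO2 concentrations below, are among those whose component sum no longer met the rule. The level of the member and that of the rest of its component had a median r of 0.298, with 10 values over 0.8 and 1 under -0.8.

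Members were assembled as shorter sequences with fewer reads behind them than other genes at this level. The longest contig of a member had a median length of 1090 bases, with quartiles of 561 and 1895 bases, against 1910 bases for all genes at this level. It was under 500 bases in 30 members (18.3%, against 1.99%). In the group with the lower maximum, the highest library held a median of 91.5 estimated reads of a member, against 408. Fewer than 30 reads stood there in 36 members (22.0%, against 1.67%), for which counting error is a larger part of the ratio. The 128 members with at least 30 reads had replicate 1 highest in 43.8% at 400 ppm and 34.4% at 800 ppm. These differences in length and reads were not adjusted for the lower level of the members. A single contig made up 85 members (51.8%, against 52.7%).

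The contigs of a member often, but not always, shared its highest library. Of 79 members with several contigs, the leading contig held a median of 63.4% of the TPM. In 60 members, several contigs reached 1 TPM in a library of each group. All of these contigs shared the highest library in 35 members at 400 ppm, in 37 at 800 ppm and in 24 in both groups. The estimated counts of all 6 libraries were whole within 0.005 in 110 members (67.1%, against 79.0% of genes at this level). In the others, reads were divided between similar contigs, so their levels depend on that division. Of the members that led a combination of highest libraries, only TRINITY_DN52324_c0_g1 and TRINITY_DN8077_c0_g2 had whole counts. The levels given for the other leading members thus depend on the division too.

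Few members differed between the CO2 concentrations beyond their own spread. Of the 145 members that passed edgeR's filter on low counts, 6 (4.14%) were called at a false discovery rate under 0.05 by edgeR's quasi-likelihood test with Benjamini-Hochberg adjustment, where 24.8% of the 20328 genes tested were called. The remaining 19 members were not tested. Higher levels at 800 ppm were called for 2 members, against 14.8% of all genes tested, and lower levels for 4, against 9.96%. The groups did not overlap in CPM in 5 members (3.45%), against 45.3% of all genes tested. An unadjusted p under 0.05 was found in 13 members (8.97%), against 39.2%. The rule asks for a large spread within each group, which enters the error of the test, so nothing is read from the lower share of calls.

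The fitted differences of the members were larger than those of other genes, and so were their errors. The median absolute log2 fold change was 0.86 for the members and 0.42 for all genes tested. The median standard error was 1.01 for the members and 0.21 for all genes tested. A fold change of at least 2 on the log2 scale was fitted in 20 members (13.8%, against 3.97%). The spread within groups that the rule asks for also widens fitted differences, so their larger size is not read as a larger CO2 difference. Values were positive in 71 members and negative in 74, with a median of -0.02. The median of all genes was -0.01, and it moved to -0.28 when counts were scaled by library size alone. The split of all calls then moved from 3013 higher and 2025 lower to 1955 higher and 5023 lower, and the median of the members to -0.28.

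**Figure D5:**
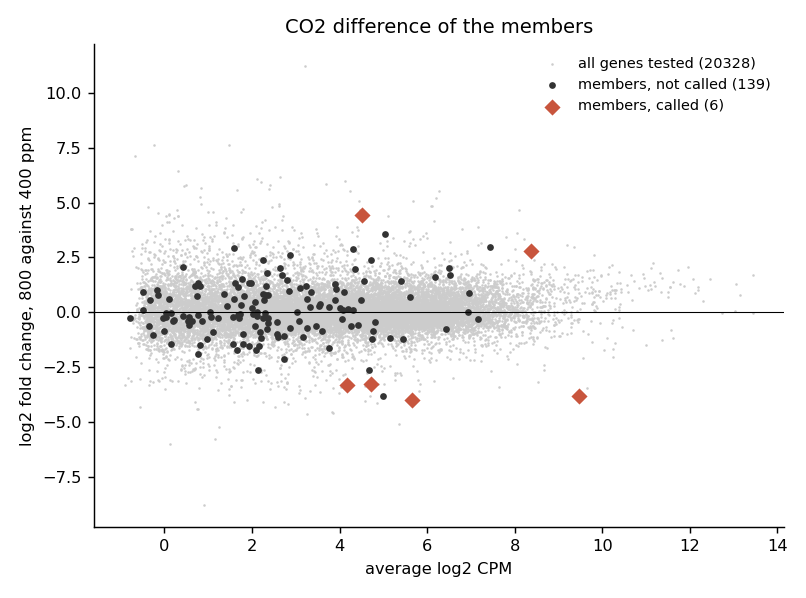
Fitted log2 fold change at 800 against 400 ppm (vertical) and average log2 CPM (horizontal) for all 20328 genes tested (grey), the 139 members tested but not called (dark) and the 6 members called (diamonds). Members lie on both sides of 0, 71 above it and 74 below.

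The 2 members called higher at 800 ppm were TRINITY_DN4788_c0_g2 and TRINITY_DN4349_c0_g1. The first had 3.32, 0.09 and 9.46 TPM in replicates 1, 2 and 3 at 400 ppm and 21.5, 126 and 83.3 TPM at 800 ppm, without overlap. Its mean was 4.29 ± 4.76 TPM at 400 ppm and 76.9 ± 52.5 TPM at 800 ppm (SD, n = 3). The log2 fold change from edgeR's quasi-likelihood test was 4.45 with a standard error of 1.10 and an adjusted p of 0.0286. TRINITY_DN4349_c0_g1, whose groups overlapped, had 116 ± 102 and 646 ± 445 TPM (SD, n = 3), with a log2 fold change of 2.81, a standard error of 0.83 and an adjusted p of 0.0494 from edgeR. TRINITY_DN6103_c0_g1, with a similar profile, had a log2 fold change of 2.96, a standard error of 0.97 and an adjusted p of 0.0659 from edgeR, and was not called.

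The 4 members called lower at 800 ppm had groups that stood apart. TRINITY_DN18443_c0_g5 had 108, 511 and 730.5 TPM at 400 ppm and 14.9, 50.2 and 3.69 TPM at 800 ppm. Its mean was 449.9 ± 316 and 22.9 ± 24.2 TPM (SD, n = 3), with a log2 fold change of -3.98, a standard error of 1.01 and an adjusted p of 0.0310 from edgeR. TRINITY_DN828_c0_g1 had means of 839 ± 527 and 46.3 ± 41.3 TPM (SD, n = 3), a log2 fold change of -3.82, a standard error of 0.86 and an adjusted p of 0.0215 from edgeR. Both were lowest in replicate 1 at 400 ppm and highest in replicate 2 at 800 ppm. TRINITY_DN3097_c0_g1 had 15.6, 40.3 and 67.4 TPM at 400 ppm and 1.04, 3.09 and 5.61 TPM at 800 ppm. Its log2 fold change was -3.32, with a standard error of 0.71 and an adjusted p of 0.0184 from edgeR, the lowest of the members. TRINITY_DN8077_c0_g2 had means of 63.3 ± 57.7 and 5.51 ± 3.87 TPM (SD, n = 3), with a log2 fold change of -3.27, a standard error of 0.83 and an adjusted p of 0.0313 from edgeR. In these 4 members, every library at 400 ppm stood above every library at 800 ppm.

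The calls changed with the libraries in the fit. The directions stayed the same, but in the 5 called members whose groups did not overlap, leaving out 1 library could not reverse them. Each of the 6 members was called in 2 or 3 of the 6 fits that left out 1 library. Over these fits, the log2 fold change was -4.88 to -3.44 for TRINITY_DN828_c0_g1, -5.30 to -3.48 for TRINITY_DN18443_c0_g5, -3.96 to -2.79 for TRINITY_DN3097_c0_g1 and -4.02 to -2.11 for TRINITY_DN8077_c0_g2. It was 3.80 to 5.90 for TRINITY_DN4788_c0_g2 and 2.40 to 3.74 for TRINITY_DN4349_c0_g1. The number of members called was 7 without replicate 1, 1 without replicate 2 and 3 without replicate 3 at 400 ppm, or 4.70, 0.637 and 1.91% of those tested, where 18.0, 13 and 13.2% of all genes tested were called. It was 1 without replicate 1, 12 without replicate 2 and 2 without replicate 3 at 800 ppm, or 0.649, 7.69 and 1.31%, against 12.7, 23.4 and 15.7% of all genes. With the replicate number as a block, 13 members were called (8.97%, against 18.5% of all genes), of which 3 were among the 6. DESeq2 called 14 members (9.66%, against 31.1% of all genes), with all 6 among them.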

How the data were processed

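Leaf RNA of 6 libraries was sequenced with paired-end reads on an Illumina instrument. The authors assembled the merged reads with Trinity, kept contigs with long open reading frames by TransDecoder, reduced redundancy with CD-hit and took expression estimates from a Perl script of Trinity. The program behind the estimates, its aligner and the versions were not given in the sources used here, and no genome build applies. For each library the authors deposited, for 45273 contigs, an estimated count without normalization and TPM, which is scaled per library and so depends on the other genes. The deposited FPKM and percent columns were not used.

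TPM and estimated counts were summed over the contigs of each gene, and summed counts were rounded to whole numbers for testing. Levels were put on the log2(TPM + 0.1) scale for correlations. Genes kept by filterByExpr with its defaults were tested by the quasi-likelihood method of edgeR 4.0.16 (R 4.3.3), scaled by TMM, with CO2 as the only term, all 6 libraries, Benjamini-Hochberg adjustment and an FDR of 0.05. Standard errors are those implied by the F statistic. Depth was 13118855 to 19841916 estimated reads, and the biological coefficient of variation was 27.4%. Floors of 3 reads cover counting error only. The alternatives were the replicate number as a block, each library left out, DESeq2 1.42.0, scaling by RLE factors or by library size, no filter on low counts, and other limits, pseudocounts and units for the rule. Scripts were checked on simulated data. Python 3.11.15, pandas 2.3.3, numpy 2.4.6 and matplotlib 3.10.9 were used.

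The members and the lists were chosen with earlier results of these data known. By rule, the genes named were the most abundant member of each combination of highest libraries, the 2 members with the largest rise and the 2 with the largest fall among those called, and those nearest to the limits inside and outside. The other called members, the members most like the named ones by r, the members sharing a component and the examples given as picked after their values were seen were added.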

Additional observations from a re-analysis of the deposited data

How the results depend on the processing

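The number of members followed the limits of the rule. With 1 TPM added in place of 0.1 TPM it was 107 genes, with a minimum of 10 TPM 71, without a minimum 2763 and with a ratio of 8 in place of 4 it was 66. On TMM-normalized counts per kilobase it was 113 genes, 103 of them members. Component sums and a minimum of 30 reads were both added after the data were seen. Component sums were taken only for components that held a member, and 119 of the 164 members still met the rule. Of these, 101 were alone in their component and met it by definition. With at least 30 reads in the highest library of each group, 128 members were left. Genes outside the list could not enter either count. The most frequent highest library at 800 ppm was tied, and it was replicate 3 on TMM-normalized counts and with at least 30 reads. The median correlation between members stayed between 0.0517 and 0.0857 under the other measures and between 0.0300 and 0.104 without each library in turn.

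Of the alternatives to the test, DESeq2 called 14 members and the replicate block 13, while RLE factors, library size only and no filter each called 5, without TRINITY_DN4349_c0_g1 (adjusted p = 0.0519, 0.0514 and 0.0576, edgeR). All genes called numbered 6320, 5097, 6978 and 4435 with DESeq2, RLE factors, library size only and no filter, and 3757 with the replicate block. Leaving out 1 library gave 1 to 12 members and 2628 to 4879 genes in all. The block removed the calls of TRINITY_DN18443_c0_g5, TRINITY_DN4788_c0_g2 and TRINITY_DN8077_c0_g2 (adjusted p = 0.0561, 0.0645 and 0.105, edgeR). Libraries with the same number deviated together with r of 0.197, 0.0166 and -0.132 for replicates 1, 2 and 3 over all genes tested and of 0.342, -0.0667 and -0.196 over the members, so the numbers were not taken to pair the libraries.

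A ratio over 3 libraries rests on its 2 extreme libraries, and 36 members had fewer than 30 reads in the highest library of a group. The levels of divided reads depend on the estimator. The cause of the changes between alternatives was not tested.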
